A study of Homo sapiens with 18 samples.

Results

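Of the 62649 genes in the count files, 68 protein-coding genes for the enzymes that write and erase methyl and acetyl groups on histones were examined. They were found by symbol: the KDM, KMT, SETD, HDAC, SIRT and KAT families, with EP300, CREBBP, EZH1, EZH2, EHMT1 and EHMT2. They comprise 21 methyltransferases, 20 demethylases, 9 acetyltransferases, 11 zinc-dependent deacetylases and 7 sirtuins. Expression was measured by mRNA sequencing in 2 human lung lines, A549, which derives from a lung adenocarcinoma and is labelled alveolar epithelial, and BEAS-2B, an immortalised bronchial epithelial line. Cells of both lines, labelled wild type, were kept for 4 h at the air-liquid interface in complete wood smoke, in filtered wood smoke or in clean air, and each of the 6 groups has 3 libraries. The series title names gas-phase carbonyl compounds in wood smoke toxicity, and the filtered arm sets filtered smoke beside the whole aerosol. Exposure was at 100 mL/min and 85% relative humidity on inserts of 24 mm, seeded 24 h before with 400000 A549 or 500000 BEAS-2B cells. The protocols in the labels name the TruSeq mRNA kit v2. Nothing in the labels says whether libraries of a group came from separate cultures, and the p-values here therefore measure a spread between libraries that may be technical. Each line is 1 established cell line, not primary epithelium.

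Acetyltransferases such as EP300 and CREBBP neutralise lysines on histone tails and mark active promoters and enhancers, and deacetylases remove those marks, the sirtuins among them at the cost of NAD. KMT2 and SETD1 enzymes are the catalytic subunits of COMPASS-type complexes, which methylate histone H3 lysine 4. EZH1 and EZH2 are the catalytic subunits of Polycomb repressive complex 2, which methylates lysine 27, and KDM6A and KDM6B remove that methyl mark.

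Libraries held between 14438397 and 21432089 stranded gene counts in A549 cells and between 28532235 and 55032499 in BEAS-2B cells. Some libraries stood apart from their groups. In BEAS-2B cells, clean air library 1 lay between the exposed and the other clean air libraries for many members, and complete smoke library 3 had 31.7% multimapping reads and 12.6% of reads outside genes, against at most 12.9% and 1.40% in the other complete smoke libraries. Filtered smoke library 3 of these cells had 19.2% multimapping reads and 2.90% of reads outside genes, against at most 11.7% and 1.26% in libraries 1 and 2 of its group. Library 3 of each A549 smoke group lay nearer to clean air than libraries 1 and 2 for many members. In A549 cells the share of reads outside genes was 3.27 to 6.41% in complete smoke, 2.56 to 5.09% in filtered smoke and 6.49 to 7.56% in clean air. It was 1.09 to 2.90% in filtered smoke and 3.51 to 6.41% in clean air in BEAS-2B cells. The part of this share in the results was not tested. Of the markers, the summed level of 5 epithelial keratins and adhesion genes in BEAS-2B cells was 4611 to 11757 CPM in complete smoke, 6313 to 11297 CPM in filtered smoke and 2253 to 5597 CPM in clean air. In A549 cells it was 6208 to 10803 CPM in complete smoke, 6978 to 13034 CPM in filtered smoke and 5076 to 6683 CPM in clean air. KRT8 and KRT18 made up most of these sums. CDH1, the epithelial cadherin of that list, averaged 10.2 CPM in complete smoke, 9.86 CPM in filtered smoke and 25.7 CPM in clean air in BEAS-2B cells. In A549 cells CDH1 averaged 37.8 CPM in complete smoke, 34.6 CPM in filtered smoke and 56.1 CPM in clean air. The 5 basal bronchial markers, 4 keratins and TP63, summed in BEAS-2B cells to 1046 to 2603 CPM in complete smoke, 1542 to 2863 CPM in filtered smoke and 665 to 1206 CPM in clean air. Their sums in A549 cells were 5.95 to 9.59 CPM in complete smoke, 5.99 to 11.05 CPM in filtered smoke and 15.0 to 18.2 CPM in clean air. In BEAS-2B cells KRT17 averaged 1379 CPM in complete smoke, 1580 CPM in filtered smoke and 585 CPM in clean air, while TP63 averaged 3.25, 2.81 and 9.22 CPM in the same groups. TP63 averaged 6.37 CPM in complete smoke, 6.91 CPM in filtered smoke and 15.3 CPM in clean air in A549 cells. The 5 alveolar type 2 markers summed to at most 2.10 CPM in A549 cells, and the surfactant genes that define those cells were at or near 0, with SFTPA1 at 0 and SFTPB at no more than 0.060 CPM in any library. The 9 markers of other cell types summed to 240 to 464 CPM in complete smoke, 366 to 501 CPM in filtered smoke and 501 to 927 CPM in clean air in BEAS-2B cells, mostly COL1A1. In A549 cells that sum was 31.5 to 34.8 CPM in complete smoke, 24.2 to 31.8 CPM in filtered smoke and 40.9 to 53.7 CPM in clean air. The part of these lists in the results was not tested.

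After smoke, CREBBP, KDM6A, KMT2E, SETD1A, SETD1B and SETD2 were among the enzymes whose mRNA fell in both lines, and the deacetylases HDAC3, HDAC11 and SIRT2 rose in both, as relative levels. As these were bulk samples, fewer cells of a kind and less RNA per cell cannot be told apart. In A549 cells, 24 of 65 tested members fell and 7 rose in complete smoke, and 28 fell and 10 rose in filtered smoke (quasi-likelihood test of edgeR, p adjusted by Benjamini-Hochberg below 0.05). Over all genes tested, 16.9% fell and 15.6% rose in complete smoke, and 23.5% fell and 23.1% rose in filtered smoke. In BEAS-2B cells, 28 of 66 members fell and 5 rose in complete smoke, and 28 fell and 7 rose in filtered smoke. There 19.5% of all genes fell and 21.5% rose in complete smoke, and 24.9% fell and 23.6% rose in filtered smoke. The members' share of falls thus lay above the background in each comparison, at 36.9%, 43.1%, 42.4% and 42.4% of those tested, and their share of rises below it. Falls of at least 2-fold numbered 16 and 20 members in A549 cells under complete and filtered smoke, where 7.8% and 12% of all genes fell that far. They numbered 18 and 21 members in BEAS-2B cells, where 13.8% and 18.9% of all genes did. The median log2 fold change of the members was -0.29 and -0.40 in A549 cells under complete and filtered smoke, and -0.74 and -0.64 in BEAS-2B cells, beside 0.02, 0.01, -0.06 and -0.07 over all genes. Both exposures of a line were set against the same clean air libraries, and samples of the same number were not paired in these fits. With complete smoke, 14 members fell in both lines, which is 14 of 24 falls in A549 and 14 of 28 in BEAS-2B cells, and 3 rose in both, HDAC3, HDAC11 and SIRT2. With filtered smoke, 20 fell and 5 rose in both. No member rose in 1 comparison and fell in another, and 14 passed in none of the 4. The matching overlaps over all genes were not counted, so these overlaps are not read as a trait of the members.

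These counts leaned on scaling and on single libraries. With libraries scaled by total count alone, the median of all genes moved to -0.75 and -0.74 in BEAS-2B and to -0.10 and -0.15 in A549 cells. The members then split into 0 rises and 44 falls in BEAS-2B complete smoke, 0 and 46 in filtered smoke, and 5 and 26 in A549 complete and 6 and 33 in A549 filtered smoke. Neither these counts nor the leave-out counts that follow were set beside the share of all genes called in the same fit. They show only how far the calls moved. All fold changes here are relative to the TMM-scaled transcriptome. Leaving out A549 complete smoke library 1 or 2 left 18 and 12 members called there, and leaving out clean air library 1, 2 or 3 left 19, 16 and 19. The BEAS-2B complete smoke count was 15 and 16 without complete smoke library 1 or 2, 13 and 11 without clean air library 2 or 3, and 51 without clean air library 1 and complete smoke library 3. The BEAS-2B filtered smoke count was 21, 20 and 32 without filtered smoke library 1, 2 or 3, and 17 and 18 without clean air library 2 or 3. Without the low-count filter, CREBBP, KMT2E, HDAC3 and HDAC11 in BEAS-2B complete smoke, EP300, KAT6A and EZH1 in BEAS-2B filtered smoke, and HDAC1, HDAC2 and SETD9 in A549 cells were no longer called. CPM values below are on 1 TMM scale over all 18 libraries, and fold changes come from fits within a line, so the ratio of CPM values can differ slightly from the fold change.

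**Figure D1:**
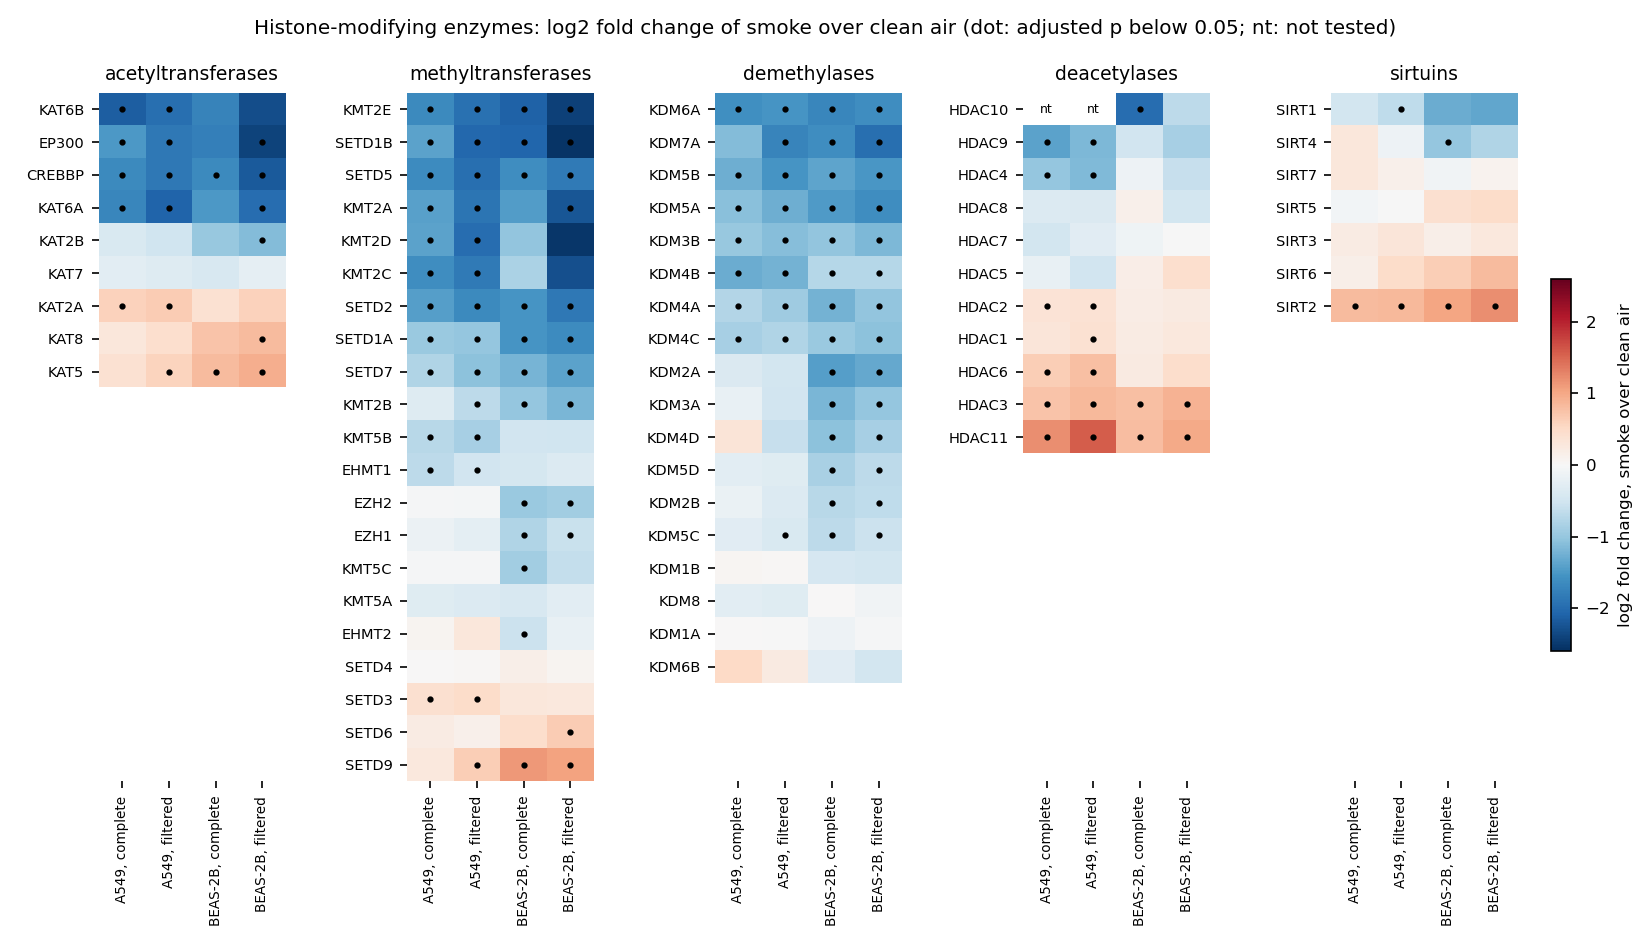
Log2 fold change of each tested enzyme (rows, grouped by class) in complete and filtered smoke over clean air in both lines (columns). Blue is lower and red is higher in smoke, and dots mark an adjusted p below 0.05, which 31, 38, 33 and 35 members reached from left to right. With scaling by total count alone, no red BEAS-2B cell keeps its dot.

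The 250 bases before the RefSeq start of 2 genes that fell in both lines, KMT2E and KDM6A, and of 2 that rose in both, HDAC3 and SIRT2, are shown because these genes moved together in both lines. They are from RefSeq (GRCh38.p14), on the strand of the gene, at chr7:105013955-105014204 (plus strand), chrX:44872938-44873187 (plus), chr5:141636850-141637099 (minus) and chr19:38899619-38899868 (minus). The GENCODE gene models of these genes start upstream of the RefSeq starts. Of the bases shown, 26 in KMT2E, 11 in KDM6A, 21 in HDAC3 and 244 in SIRT2 lie inside those models. The counting used another annotation, in which the starts may differ. Capitals mark the GC box GGGCGG and the CCAAT box on either strand.
KMT2E: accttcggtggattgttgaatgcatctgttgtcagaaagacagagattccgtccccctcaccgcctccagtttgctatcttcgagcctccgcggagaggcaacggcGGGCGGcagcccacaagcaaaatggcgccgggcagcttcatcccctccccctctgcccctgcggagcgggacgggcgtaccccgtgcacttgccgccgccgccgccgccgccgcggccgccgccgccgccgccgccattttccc
KDM6A: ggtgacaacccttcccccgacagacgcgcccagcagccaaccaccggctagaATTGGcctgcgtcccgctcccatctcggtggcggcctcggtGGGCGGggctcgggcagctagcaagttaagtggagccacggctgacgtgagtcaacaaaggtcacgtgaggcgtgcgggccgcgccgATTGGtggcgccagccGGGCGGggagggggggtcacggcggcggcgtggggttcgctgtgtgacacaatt
HDAC3: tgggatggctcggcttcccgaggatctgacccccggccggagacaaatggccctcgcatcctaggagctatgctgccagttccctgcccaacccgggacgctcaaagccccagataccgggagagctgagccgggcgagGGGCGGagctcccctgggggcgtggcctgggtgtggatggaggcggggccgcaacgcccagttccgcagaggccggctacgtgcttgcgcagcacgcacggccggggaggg
SIRT2: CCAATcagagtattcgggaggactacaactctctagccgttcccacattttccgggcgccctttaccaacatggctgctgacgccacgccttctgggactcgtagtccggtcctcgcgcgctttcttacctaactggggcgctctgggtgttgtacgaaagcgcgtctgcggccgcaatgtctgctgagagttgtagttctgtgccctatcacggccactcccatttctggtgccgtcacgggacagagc
KMT2E held 1 GC box and no CCAAT box, KDM6A 2 of each, HDAC3 1 GC box and SIRT2 1 CCAAT box at its first base. The KDM6A bases also held 1 AP-1 motif TGANTCA and 1 E-box CACGTG, which are not in capitals. Of the 68 members, 62 were in the promoter table. A GC box was in 72.6% of them, in 10 of 13 members that fell in both lines with complete smoke and had an entry, in 2 of the 3 that rose in both, and in 46.2% of all 27305 genes of the table. CCAAT was in 33.9% of members and 37.0% of all genes, and the TATA motif TATAAA in 1.6% and 13.0%. The AP-1 motif TGANTCA was in 6.5% and 8.1%, the cyclic-AMP element TGACGTCA in 1.6% and 2.0%, and the E-box CACGTG in 14.5% and 7.7%. All 6 motifs were sought on both strands, and TGACGTCA and TGANTCA differ in length, so that no match of one is a match of the other. A gene counted if any of its entries matched, and the 62 members had 91 entries. The table was not limited to protein-coding genes, as the members were, so these shares compare unlike sets. A match describes these letters only.

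Among the 9 acetyltransferases, CREBBP, EP300, KAT6A and KAT6B held all falls in A549 cells, and the rises were those of KAT2A, KAT5 and KAT8. In A549 cells 4 fell and 1 rose with complete smoke, and 4 fell and 2 rose with filtered smoke. In BEAS-2B cells 1 fell and 1 rose with complete smoke, and 4 fell and 2 rose with filtered smoke. Over all genes, 16.9% fell and 15.6% rose in A549 complete smoke, and 23.5% and 23.1% in filtered smoke. In BEAS-2B cells 19.5% of all genes fell and 21.5% rose in complete smoke, and 24.9% and 23.6% in filtered smoke. In BEAS-2B complete smoke the class was thus below these shares in both directions, at 11.1% each. CREBBP, the coactivator that binds phosphorylated CREB, had 27.98, 21.98 and 38.3 CPM in complete smoke, 20.01, 21.1 and 35.1 CPM in filtered smoke and 95.6, 93.4 and 89.8 CPM in clean air in A549 cells. The groups did not overlap, and it fell by log2 values of -1.65 (SE 0.25, adjusted p = 0.0029) and -1.86 (SE 0.26, adjusted p = 0.0013) with complete and filtered smoke. In BEAS-2B cells CREBBP had 14.04, 13.1 and 38.9 CPM in complete smoke, 13.1, 14.6 and 20.003 CPM in filtered smoke and 32.03, 87.6 and 99.1 CPM in clean air. Complete smoke library 3 there lay above clean air library 1. Its log2 fold changes were -1.66 (SE 0.51, adjusted p = 0.03) and -2.18 (SE 0.52, adjusted p = 0.011).

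EP300, the paralogue of CREBBP with which it shares many targets, had 28.1, 22.7 and 47.6 CPM in complete smoke, 18.8, 20.3 and 38.1 CPM in filtered smoke and 97.3, 94.6 and 87.9 CPM in clean air in A549 cells. Its log2 fold changes there were -1.498 (SE 0.32, adjusted p = 0.0099) and -1.85 (SE 0.32, adjusted p = 0.0029). In BEAS-2B cells EP300 had 10.47, 13.3 and 44.5 CPM in complete smoke, 8.70, 16.5 and 20.7 CPM in filtered smoke and 29.01, 103 and 115 CPM in clean air, again with complete smoke library 3 above clean air library 1. EP300 fell in filtered smoke, by a log2 value of -2.40 (SE 0.67, adjusted p = 0.019), and the value in complete smoke, -1.77 (SE 0.66, adjusted p = 0.054), did not pass. KAT6A and KAT6B, the MOZ and MORF enzymes that acetylate histone H3, were the acetyltransferases with the largest falls in A549 cells. KAT6A had 22.8, 20.4 and 42.6 CPM in complete smoke, 13.6, 16.7 and 34.8 CPM in filtered smoke and 96.1, 90.3 and 92.1 CPM in clean air there, and its log2 fold changes were -1.69 (SE 0.37, adjusted p = 0.011) and -2.09 (SE 0.37, adjusted p = 0.003). KAT6B, a low-count gene, had 1.19, 1.17 and 1.81 CPM in complete smoke, 0.737, 0.849 and 3.11 CPM in filtered smoke and 5.02, 5.998 and 7.60 CPM in clean air in A549 cells, without overlap, and its log2 fold changes were -2.15 and -1.96 (adjusted p = 0.011 and 0.009). In BEAS-2B cells KAT6A had 10.3, 11.4 and 32.6 CPM in complete smoke, 10.6, 12.6 and 16.7 CPM in filtered smoke and 20.1, 66.2 and 73.9 CPM in clean air. Its log2 fold changes were -1.49 (SE 0.55, adjusted p = 0.055) and -1.98 (SE 0.56, adjusted p = 0.02). KAT6B had 0.153, 0.927 and 1.76 CPM in complete smoke, 0.408, 0.624 and 0.890 CPM in filtered smoke and 0.441, 4.39 and 5.07 CPM in clean air in BEAS-2B cells. Clean air library 1 was as low as the smoke libraries, and neither value passed (adjusted p = 0.13 and 0.055).

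KAT2A, the GCN5 enzyme of the SAGA complex, had 110.3, 113 and 97.3 CPM in complete smoke, 124, 124 and 87.1 CPM in filtered smoke and 79.3, 70.1 and 63.998 CPM in clean air in A549 cells. All smoke libraries lay above all clean air libraries, and KAT2A rose by log2 values of 0.59 (SE 0.17, adjusted p = 0.024) and 0.66 (SE 0.17, adjusted p = 0.011). Its exons share 10.8% of their bases with another annotated gene on the same strand. In BEAS-2B cells KAT2A had 129, 103 and 59.4 CPM in complete smoke, 145, 109.7 and 85.2 CPM in filtered smoke and 96.9, 61.8 and 62.4 CPM in clean air, and neither value passed. KAT2B, its paralogue, had 14.6 ± 3.73 CPM in complete smoke, 13.4 ± 3.08 CPM in filtered smoke and 19.4 ± 0.171 CPM in clean air in A549 cells (SD, n = 3 each), and neither value passed. In BEAS-2B cells KAT2B had 3.998, 4.42 and 6.84 CPM in complete smoke, 3.14, 5.19 and 5.81 CPM in filtered smoke and 5.35, 13.1 and 12.8 CPM in clean air, and fell in filtered smoke by a log2 value of -1.12 (SE 0.38, adjusted p = 0.037). Of the other 3 acetyltransferases, KAT5, the catalytic subunit of NuA4, passed as higher in 3 of 4 comparisons, KAT8 in 1 and KAT7 in none.

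Calls in this class often needed each library. In BEAS-2B complete smoke, CREBBP lost its call without complete smoke library 1 or 2 or clean air library 2 or 3 (adjusted p up to 0.10). In BEAS-2B filtered smoke, EP300 and KAT6A lost theirs without filtered smoke library 1 or 2 or clean air library 2 or 3 (up to 0.065 and 0.068). KAT2B lost its call without filtered smoke library 1 or 2, complete smoke library 2 or clean air library 2 or 3 (adjusted p up to 0.12). In A549 complete smoke, KAT6A and KAT6B lost theirs without complete smoke library 2 (adjusted p = 0.052 and 0.054), and KAT2A without complete smoke library 1 or 2 or any clean air library (up to 0.089). KAT2A in A549 filtered smoke lost its call narrowly without filtered smoke library 2 (0.0501).

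Of the 6 lysine 4 methyltransferases of COMPASS type (KMT2A to KMT2D, SETD1A, SETD1B), 5 fell in complete and 6 in filtered smoke in A549 cells. The same list had 3 and 4 falls in BEAS-2B cells, and no rise in either line. Over all 21 methyltransferases, 11 fell and 1 rose with complete smoke and 12 fell and 2 rose with filtered smoke in A549 cells. In BEAS-2B cells 11 fell and 1 rose, and 10 fell and 2 rose. Over all genes, 16.9% and 23.5% fell in A549 and 19.5% and 24.9% in BEAS-2B cells with complete and filtered smoke. Rises over all genes were 15.6% and 23.1% in A549 and 21.5% and 23.6% in BEAS-2B cells. SETD1B, which with SETD1A places much of the lysine 4 trimethylation at promoters, had 11.8, 7.28 and 23.6 CPM in complete smoke, 7.67, 6.65 and 13.1 CPM in filtered smoke and 41.5, 36.1 and 35.6 CPM in clean air in A549 cells. In BEAS-2B cells SETD1B had 4.21, 5.71 and 13.6 CPM in complete smoke, 5.39, 6.22 and 5.68 CPM in filtered smoke and 19.4, 39.96 and 42.9 CPM in clean air. Smoke and clean air did not overlap in either line. The log2 fold changes of SETD1B were -1.40 (SE 0.38, adjusted p = 0.023) and -2.04 (SE 0.40, adjusted p = 0.0042) in A549 cells. They were -2.06 (SE 0.46, adjusted p = 0.0096) and -2.55 (SE 0.47, adjusted p = 0.005) in BEAS-2B cells, the last being the lowest value of any member in any of these 4 comparisons.

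KMT2A, the MLL1 enzyme, had 23.8, 20.4 and 51.8 CPM in complete smoke, 12.2, 14.1 and 41.7 CPM in filtered smoke and 87.6, 86.03 and 82.3 CPM in clean air in A549 cells, without overlap. Its log2 fold changes were -1.40 (SE 0.47, adjusted p = 0.044) and -1.90 (SE 0.48, adjusted p = 0.011). About 17.9% of the bases of its exons are shared with another annotated gene on the same strand. In BEAS-2B cells KMT2A had 14.9, 16.2 and 49.98 CPM in complete smoke, 12.01, 16.2 and 21.1 CPM in filtered smoke and 34.96, 95.8 and 103 CPM in clean air. It fell in filtered smoke, by a log2 value of -2.22 (SE 0.56, adjusted p = 0.013), and complete smoke gave -1.45 (SE 0.54, adjusted p = 0.055), which did not pass. KMT2D, the MLL4 enzyme of enhancers, had 40.2, 29.9 and 80.99 CPM in complete smoke, 18.2, 27.7 and 54.6 CPM in filtered smoke and 137, 129 and 132 CPM in clean air in A549 cells. It fell there by log2 values of -1.39 (SE 0.42, adjusted p = 0.032) and -1.98 (SE 0.43, adjusted p = 0.0062). In BEAS-2B cells KMT2D had 8.79, 7.42 and 86.8 CPM in complete smoke, 6.13, 7.24 and 24.7 CPM in filtered smoke and 27.03, 83.4 and 115 CPM in clean air. Complete smoke library 3 was at the clean air level while libraries 1 and 2 were below every clean air library. Neither value passed (adjusted p = 0.4 and 0.064). KMT2E, a family member without known methyltransferase activity of its own, had 18.2, 16.3 and 32.9 CPM in complete smoke, 12.1, 12.6 and 30.02 CPM in filtered smoke and 74.1, 71.04 and 67.4 CPM in clean air in A549 cells. In BEAS-2B cells KMT2E had 4.94, 6.03 and 17.3 CPM in complete smoke, 4.53, 8.37 and 10.3 CPM in filtered smoke and 16.8, 54.2 and 56.03 CPM in clean air, where complete smoke library 3 slightly exceeded clean air library 1. KMT2E fell in all 4 comparisons, with log2 fold changes of -1.65 and -1.95 in A549 and -2.10 and -2.42 in BEAS-2B cells (adjusted p from 0.004 to 0.023).

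SETD2, which trimethylates lysine 36 along transcribed genes, had 24.9, 26.8 and 45.1 CPM in complete smoke, 18.97, 21.1 and 42.7 CPM in filtered smoke and 89.5, 89.3 and 83.6 CPM in clean air in A549 cells. In BEAS-2B cells SETD2 had 21.7, 21.7 and 43.4 CPM in complete smoke, 22.1, 24.03 and 25.1 CPM in filtered smoke and 55.9, 101 and 103 CPM in clean air. No smoke library of either line reached a clean air library. SETD2 fell by log2 values of -1.43 (SE 0.32, adjusted p = 0.012) and -1.65 (SE 0.32, adjusted p = 0.0042) in A549, and of -1.53 (SE 0.33, adjusted p = 0.0089) and -1.86 (SE 0.34, adjusted p = 0.0049) in BEAS-2B cells. SETD5, a gene of neurodevelopmental disorders, had 49.96, 44.7 and 84.8 CPM in complete smoke, 34.8, 38.1 and 71.8 CPM in filtered smoke and 197, 179.9 and 185 CPM in clean air in A549 cells. In BEAS-2B cells SETD5 had 19.9, 28.9 and 62.1 CPM in complete smoke, 24.9, 36.1 and 37.4 CPM in filtered smoke and 76.2, 138 and 141 CPM in clean air. The log2 fold changes of SETD5 were -1.64 and -1.95 in A549 and -1.62 and -1.84 in BEAS-2B cells, all called. SETD9 was the methyltransferase that rose most. It had 23.8, 21.97 and 19.8 CPM in complete smoke, 21.5, 20.6 and 21.03 CPM in filtered smoke and 9.83, 10.02 and 10.6 CPM in clean air in BEAS-2B cells, with narrow spread and no overlap, and log2 fold changes of 1.12 (SE 0.16, adjusted p = 0.0026) and 1.04 (SE 0.16, adjusted p = 0.0033). In A549 cells SETD9 had 5.54, 5.91 and 3.75 CPM in complete smoke, 6.44, 6.98 and 5.97 CPM in filtered smoke and 3.93, 4.60 and 4.03 CPM in clean air, and rose with filtered smoke, at 0.63 (SE 0.20, adjusted p = 0.027). SETD7 and SETD1A fell in all 4 comparisons, at log2 fold changes from -0.78 to -1.63. SETD3, which methylates actin, rose in A549 cells and SETD6 in BEAS-2B filtered smoke.

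In A549 complete smoke the calls of KMT2A, KMT2D and SETD1B were lost without complete smoke library 1 or 2 or any one clean air library, with adjusted p up to 0.15, 0.12 and 0.083. KMT2E and SETD2 lost theirs without complete smoke library 2 (0.056 and 0.057). In BEAS-2B complete smoke, KMT2E lost its call without complete smoke library 1 or 2 or clean air library 2 or 3 (up to 0.081), and SETD5 without complete smoke library 2 or clean air library 2 or 3 (up to 0.066). SETD9 in A549 filtered smoke lost its call without any one clean air library or filtered smoke library 1 or 2 (up to 0.094).

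**Figure D2:**
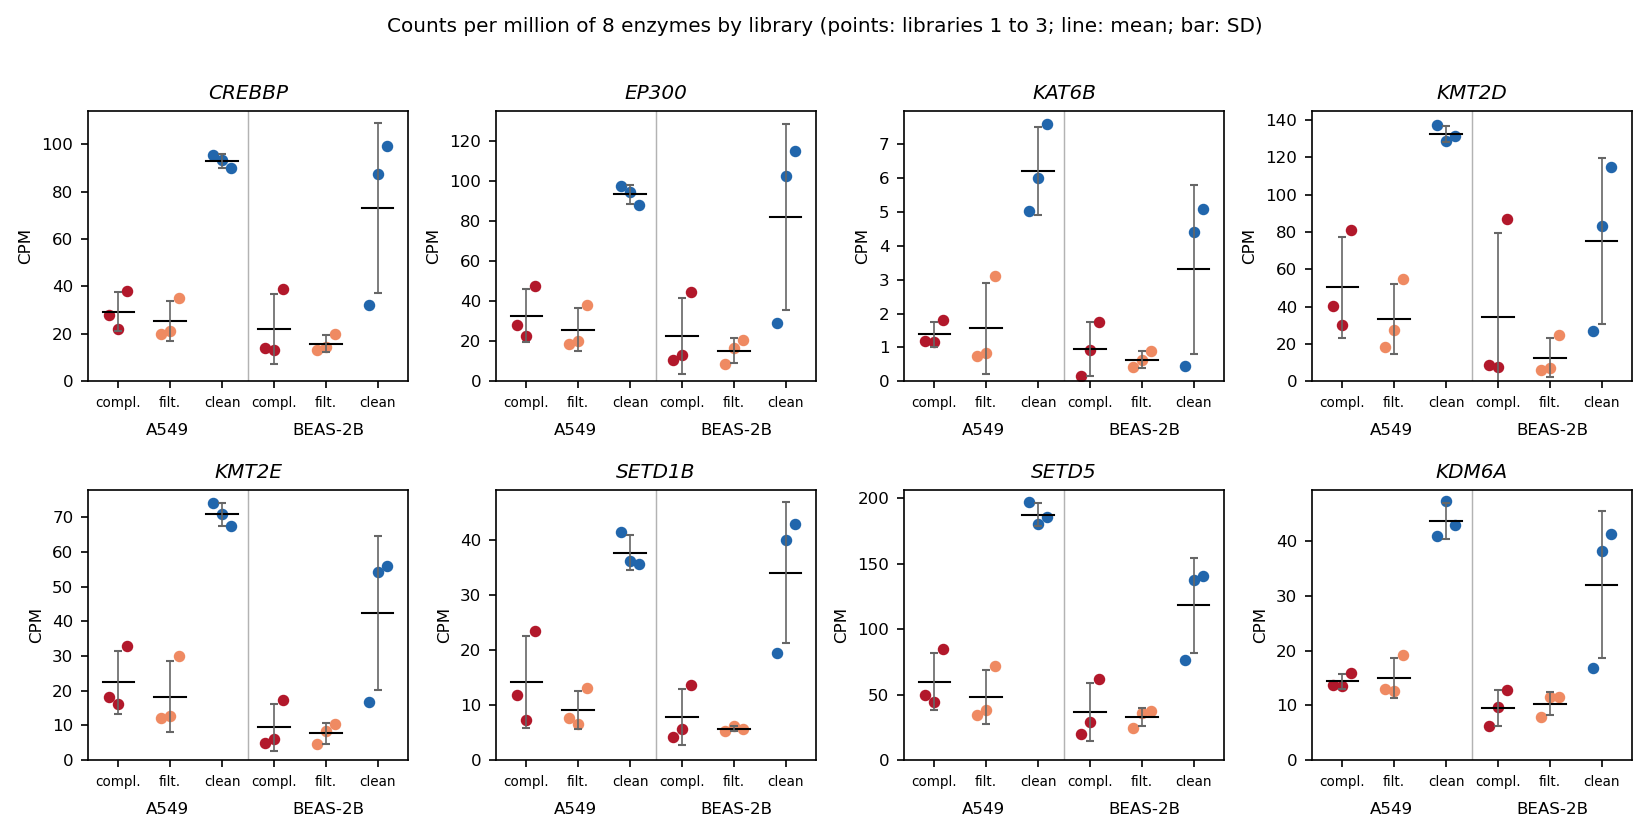
CPM of 8 members in each library, complete smoke, filtered smoke and clean air from left to right in each line, with the mean (line) and SD (bar) of 3 libraries. All A549 smoke libraries lie below the clean air libraries in the 8 panels, and in BEAS-2B cells clean air library 1 and complete smoke library 3 lie between or across the groups.

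Of the lysine 27 enzymes, EZH2 and EZH1 fell in BEAS-2B cells, KDM6A fell in both lines, and KDM6B passed in no comparison of smoke with clean air. EZH2 had 48.9, 58.6 and 48.5 CPM in complete smoke, 46.4, 58.3 and 60.4 CPM in filtered smoke and 106, 100.2 and 100.1 CPM in clean air in BEAS-2B cells. Every smoke library lay well below every clean air library, and EZH2 fell by log2 values of -0.96 (SE 0.18, adjusted p = 0.005) and -0.90 (SE 0.18, adjusted p = 0.006), calls that held without any one library. In A549 cells EZH2 had 53.1, 52.7 and 50.95 CPM in complete smoke, 51.8, 48.2 and 54.7 CPM in filtered smoke and 56.6, 54.4 and 49.1 CPM in clean air. These groups overlapped, with log2 fold changes of -0.02 (SE 0.12, adjusted p = 0.9) and -0.04 (SE 0.12, adjusted p = 0.8). The 6 exposed BEAS-2B libraries thus spanned 46.4 to 60.4 CPM, and the 9 A549 libraries 48.2 to 56.6 CPM. EZH1, the paralogue of less dividing cells, had 14.4, 19.7 and 15.5 CPM in complete smoke, 16.99, 21.4 and 19.8 CPM in filtered smoke and 29.4, 26.5 and 30.7 CPM in clean air in BEAS-2B cells. It fell there by log2 values of -0.79 (SE 0.20, adjusted p = 0.014) and -0.58 (SE 0.19, adjusted p = 0.035). The first call was lost without complete smoke library 1 or clean air library 3 (adjusted p up to 0.054) and the second without any one filtered smoke or clean air library (up to 0.10). In A549 cells EZH1 had 22.7 ± 5.81 CPM in complete smoke, 21.2 ± 7.84 CPM in filtered smoke and 25.4 ± 1.82 CPM in clean air (SD, n = 3 each), and neither value passed.

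KDM6A, the demethylase of lysine 27 on the X chromosome, had 13.8, 13.5 and 15.9 CPM in complete smoke, 12.95, 12.7 and 19.2 CPM in filtered smoke and 40.97, 47.3 and 42.9 CPM in clean air in A549 cells. In BEAS-2B cells KDM6A had 6.16, 9.67 and 12.8 CPM in complete smoke, 7.92, 11.5 and 11.6 CPM in filtered smoke and 16.8, 38.2 and 41.4 CPM in clean air. No smoke library reached any clean air library in either line. The log2 fold changes of KDM6A were -1.60 (SE 0.19, adjusted p = 0.0011) and -1.54 (SE 0.18, adjusted p = 0.0008) in A549, and -1.70 (SE 0.38, adjusted p = 0.0097) and -1.62 (SE 0.38, adjusted p = 0.01) in BEAS-2B cells, and all 4 calls held without any one library. KDM6B, its inducible paralogue, had 20.7, 24.3 and 65.4 CPM in complete smoke, 20.4, 29.6 and 40.6 CPM in filtered smoke and 28.6, 25.8 and 23.7 CPM in clean air in A549 cells. Complete smoke library 3 was far above all others, and the groups overlapped. Its log2 fold changes there were 0.51 (SE 0.40, adjusted p = 0.33) and 0.22 (SE 0.40, adjusted p = 0.67), and without library 3 of the smoke group they were -0.21 and -0.05. In BEAS-2B cells KDM6B had 2.41, 2.39 and 8.38 CPM in complete smoke, 2.12, 4.40 and 5.42 CPM in filtered smoke and 3.24, 7.13 and 6.45 CPM in clean air. The values there were -0.29 (SE 0.56, adjusted p = 0.68) and -0.47 (SE 0.56, adjusted p = 0.49), but without complete smoke library 3 the first was -1.23, which passed (adjusted p = 0.041).

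**Figure D3:**
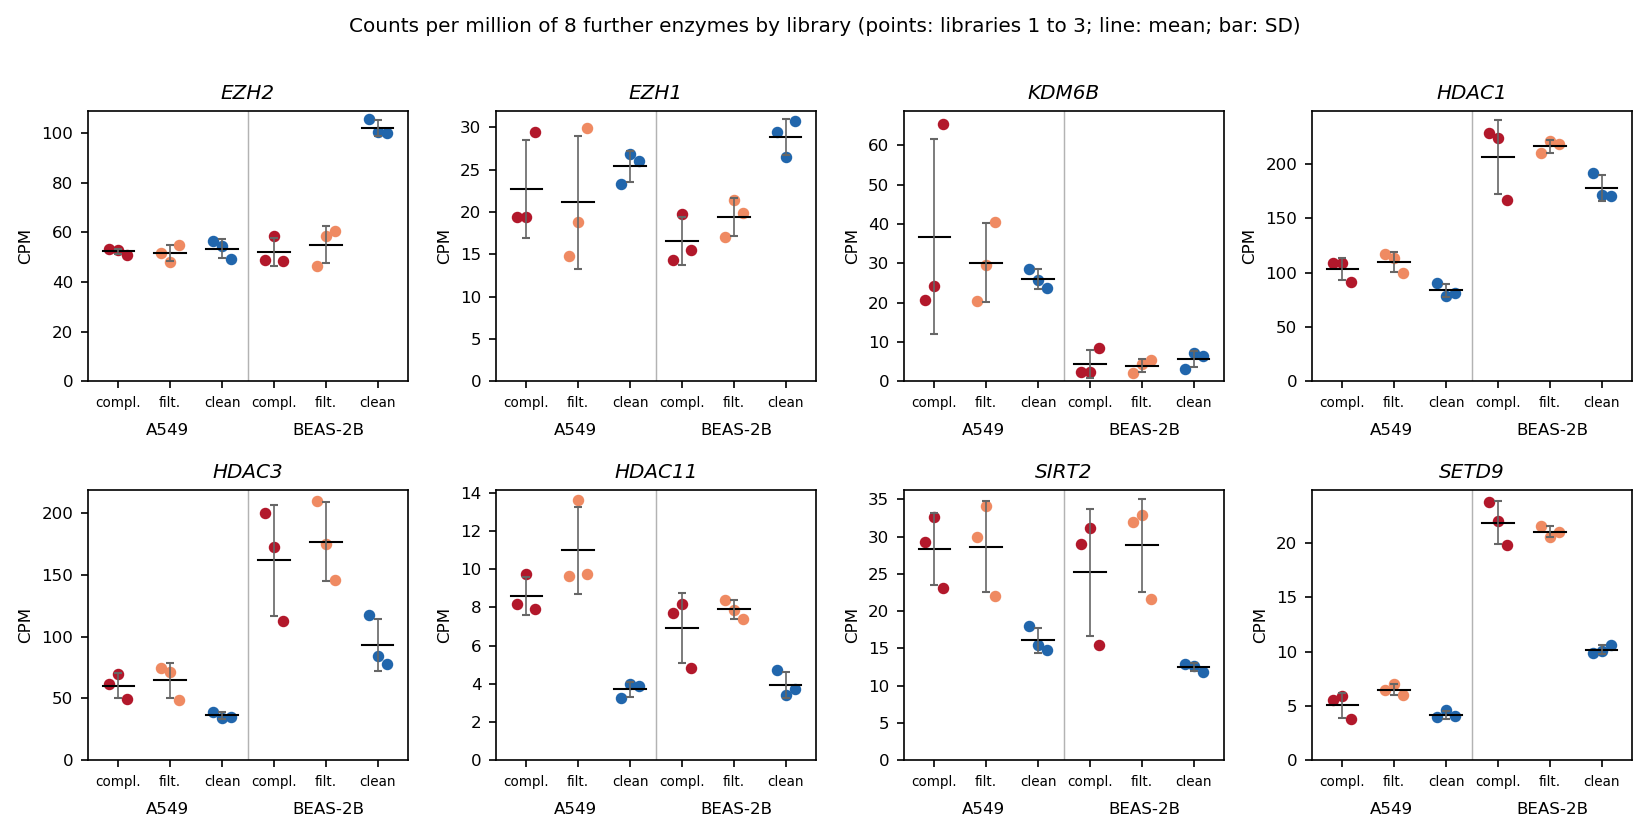
CPM of 8 further members in each library, complete smoke, filtered smoke and clean air from left to right in each line, with the mean (line) and SD (bar) of 3 libraries. EZH2 lies at 46.4 to 60.4 CPM in the BEAS-2B smoke libraries and at 100.1 CPM or more in BEAS-2B clean air, and at 48.2 to 56.6 CPM in all A549 libraries.

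Of the 20 demethylases 18 were tested, since KDM4E and KDM4F had almost no counts, and none rose. A549 cells had 7 falls in complete and 9 in filtered smoke, and BEAS-2B cells had 14 falls in each. Over all genes, 16.9% and 23.5% fell in A549 and 19.5% and 24.9% in BEAS-2B cells, while 15.6% to 23.6% rose. KDM5A, an eraser of lysine 4 methylation first known as a binding partner of the retinoblastoma protein, had 35.4, 39.3 and 57.1 CPM in complete smoke, 28.2, 30.4 and 57.6 CPM in filtered smoke and 96.2, 91.9 and 95.1 CPM in clean air in A549 cells. In BEAS-2B cells KDM5A had 19.5, 23.2 and 33.7 CPM in complete smoke, 17.7, 24.6 and 28.7 CPM in filtered smoke and 46.7, 86.5 and 85.4 CPM in clean air. In both lines all smoke libraries lay below all clean air libraries. KDM5A fell by log2 values of -1.09 (SE 0.28, adjusted p = 0.018) and -1.28 (SE 0.28, adjusted p = 0.0064) in A549, and of -1.47 (SE 0.31, adjusted p = 0.0082) and -1.61 (SE 0.31, adjusted p = 0.0059) in BEAS-2B cells. KDM5B, its paralogue, had 22.7, 25.4 and 54.99 CPM in complete smoke, 18.8, 24.3 and 43.5 CPM in filtered smoke and 79.6, 78.9 and 93.2 CPM in clean air in A549 cells, without overlap. In BEAS-2B cells KDM5B had 10.3, 11.9 and 16.3 CPM in complete smoke, 10.8, 12.7 and 12.02 CPM in filtered smoke and 20.9, 42.1 and 39.97 CPM in clean air. The log2 fold changes of KDM5B were -1.28 and -1.53 in A549 and -1.38 and -1.52 in BEAS-2B cells, all called. In A549 complete smoke the calls of KDM5A and KDM5B were lost without complete smoke library 1 or 2 or any one clean air library (adjusted p up to 0.074 and 0.11).

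KDM3A, a hypoxia-inducible eraser of lysine 9 methylation, had 22.3, 32.5 and 35.02 CPM in complete smoke, 24.9, 35.4 and 42.6 CPM in filtered smoke and 46.9, 79.4 and 82.5 CPM in clean air in BEAS-2B cells. It fell there by log2 values of -1.18 (SE 0.29, adjusted p = 0.013) and -1.01 (SE 0.29, adjusted p = 0.02). Without clean air library 2 or 3 both calls were lost, and the filtered one also without filtered smoke library 1 or 2 (adjusted p up to 0.053 and 0.073). In A549 cells KDM3A had 43.5, 46.4 and 61.9 CPM in complete smoke, 33.1, 37.6 and 53.7 CPM in filtered smoke and 58.2, 62.8 and 54.9 CPM in clean air. The log2 fold changes were -0.20 (SE 0.20, adjusted p = 0.46) and -0.49 (SE 0.20, adjusted p = 0.07), and with the sample number as a block the filtered value was -0.53 and passed (adjusted p = 0.0080). With an offset for span, length and GC the sign turned, to 0.31 in complete smoke, which passed (adjusted p = 0.034), and 0.197 in filtered smoke, which did not. KDM7A, an eraser of lysine 9 and 27 methylation, had 0.610, 1.11 and 2.28 CPM in complete smoke, 0.531, 1.10 and 1.53 CPM in filtered smoke and 2.61, 4.72 and 5.24 CPM in clean air in BEAS-2B cells. It fell by log2 values of -1.61 (SE 0.52, adjusted p = 0.035) and -1.96 (SE 0.52, adjusted p = 0.016), calls lost without smoke library 1 or 2 of the group or clean air library 2 or 3, the first also without filtered smoke library 2 (adjusted p up to 0.11 and 0.056). In A549 cells KDM7A had 4.82, 4.95 and 10.3 CPM in complete smoke, 2.58, 3.25 and 7.63 CPM in filtered smoke and 11.3, 16.7 and 16.4 CPM in clean air, and fell with filtered smoke, by a log2 value of -1.71 (SE 0.42, adjusted p = 0.01). KDM3B and the lysine 9 and 36 erasers KDM4A, KDM4B and KDM4C fell in all 4 comparisons, at log2 fold changes between -0.74 and -1.30. In KDM4A, 40.2% of exon bases are shared with another annotated gene on the same strand, so its counts are uncertain. KDM2A, KDM2B and KDM4D fell with both exposures in BEAS-2B cells. KDM1A, the flavin-dependent LSD1, had log2 fold changes between -0.12 and 0.01, none called.

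Of the class I enzymes, HDAC1, HDAC2, HDAC3 and HDAC8, 2 rose with complete and 3 with filtered smoke in A549 cells, and 1 rose with each in BEAS-2B cells, and none fell. Of the class IIa enzymes, HDAC4, HDAC5, HDAC7 and HDAC9, 2 fell with each exposure in A549 cells and none passed in BEAS-2B cells. Over all genes, 15.6% and 23.1% rose in A549 and 21.5% and 23.6% in BEAS-2B cells with complete and filtered smoke. Falls over all genes were 16.9% and 23.5% in A549 and 19.5% and 24.9% in BEAS-2B cells. The rises of class I in BEAS-2B cells, at 25%, were near these shares. HDAC3, the catalytic subunit of the NCOR corepressor complexes, had 61.6, 69.8 and 49.4 CPM in complete smoke, 74.6, 71.2 and 48.3 CPM in filtered smoke and 39.3, 34.4 and 34.9 CPM in clean air in A549 cells. The groups did not overlap, and it rose by log2 values of 0.74 (SE 0.19, adjusted p = 0.019) and 0.85 (SE 0.19, adjusted p = 0.0076). In BEAS-2B cells HDAC3 had 199.9, 173 and 112 CPM in complete smoke, 209.6, 175 and 146 CPM in filtered smoke and 117, 84.5 and 77.9 CPM in clean air. Complete smoke library 3 lay below clean air library 1. It rose by 0.79 (SE 0.27, adjusted p = 0.041) and 0.91 (SE 0.27, adjusted p = 0.022) on the log2 scale. HDAC11, the class IV enzyme, had 8.16, 9.74 and 7.94 CPM in complete smoke, 9.64, 13.6 and 9.74 CPM in filtered smoke and 3.26, 4.01 and 3.88 CPM in clean air in A549 cells, without overlap. It rose by log2 values of 1.22 (SE 0.20, adjusted p = 0.0033) and 1.57 (SE 0.20, adjusted p = 0.00089), the second being the highest of any member. In BEAS-2B cells HDAC11 had 7.72, 8.20 and 4.85 CPM in complete smoke, 8.41, 7.89 and 7.40 CPM in filtered smoke and 4.72, 3.43 and 3.72 CPM in clean air, with log2 fold changes of 0.81 (SE 0.25, adjusted p = 0.028) and 0.98 (SE 0.25, adjusted p = 0.013). With scaling by total count alone, none of the BEAS-2B rises of HDAC3, HDAC11, SIRT2 and SETD9 passed. Nor did the A549 rises of HDAC1, HDAC2 and, with filtered smoke, SETD9.

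HDAC1 and HDAC2, the paired catalytic subunits of the SIN3, NuRD and CoREST complexes, had log2 fold changes of at most 0.40 in all 4 comparisons. HDAC1 had 108, 109 and 91.5 CPM in complete smoke, 117, 113 and 99.4 CPM in filtered smoke and 90.7, 78.7 and 81.3 CPM in clean air in A549 cells and rose with filtered smoke by a log2 value of 0.40 (SE 0.14, adjusted p = 0.035). HDAC2 had 87.5, 93.6 and 80.2 CPM in complete smoke, 88.5, 88.7 and 86.5 CPM in filtered smoke and 65.8, 69.5 and 69.6 CPM in clean air in A549 cells, and rose by 0.36 (SE 0.12, adjusted p = 0.046) and 0.37 (SE 0.12, adjusted p = 0.03). In BEAS-2B cells HDAC1 had 206 ± 33.97 CPM in complete smoke, 216 ± 5.91 CPM in filtered smoke and 178 ± 11.7 CPM in clean air, and HDAC2 had 161 ± 1.77 CPM in complete smoke, 166 ± 26.5 CPM in filtered smoke and 142 ± 1.61 CPM in clean air (SD, n = 3 each), and neither passed. HDAC5 had 16.2 ± 5.15 CPM in complete smoke, 13.2 ± 2.80 CPM in filtered smoke and 18.8 ± 1.89 CPM in clean air in A549 cells, and 20.99 ± 5.95 CPM in complete smoke, 25.6 ± 5.52 CPM in filtered smoke and 18.7 ± 0.969 CPM in clean air in BEAS-2B cells (SD, n = 3 each), and passed in none. HDAC6, the cytoplasmic tubulin deacetylase, rose with both exposures in A549 cells. HDAC10, a polyamine deacetylase, was under the count minimum in A549 cells and had 0.0916, 0.285 and 0.147 CPM in complete smoke, 0.327, 0.599 and 0.362 CPM in filtered smoke and 0.913, 0.295 and 0.873 CPM in clean air in BEAS-2B cells. It fell with complete smoke, at a log2 value of -1.98 (SE 0.59, adjusted p = 0.026), and did not pass with filtered smoke. Of its exon bases 55.8% are shared with MAPK12 on the same strand, and reads there count for neither gene.

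SIRT2, the mainly cytoplasmic sirtuin, had 29.3, 32.7 and 23.1 CPM in complete smoke, 29.9, 34.1 and 22.04 CPM in filtered smoke and 18.0003, 15.5 and 14.8 CPM in clean air in A549 cells. In BEAS-2B cells SIRT2 had 28.99, 31.2 and 15.5 CPM in complete smoke, 31.98, 32.9 and 21.6 CPM in filtered smoke and 12.9, 12.6 and 11.9 CPM in clean air. Every smoke library lay above every clean air library in both lines. SIRT2 rose by log2 values of 0.82 (SE 0.19, adjusted p = 0.014) and 0.84 (SE 0.19, adjusted p = 0.0081) in A549, and of 1.02 (SE 0.27, adjusted p = 0.018) and 1.20 (SE 0.27, adjusted p = 0.0092) in BEAS-2B cells. SIRT1, the nuclear sirtuin that deacetylates p53, had 30.5, 40.7 and 49.3 CPM in complete smoke, 26.02, 34.04 and 44.9 CPM in filtered smoke and 53.1, 55.3 and 59.4 CPM in clean air in A549 cells and fell with filtered smoke by a log2 value of -0.67 (SE 0.22, adjusted p = 0.033). In BEAS-2B cells SIRT1 had 5.68, 11.5 and 18.1 CPM in complete smoke, 5.55, 14.3 and 15.02 CPM in filtered smoke and 14.6, 35.1 and 40.4 CPM in clean air, and the values were -1.30 (SE 0.53, adjusted p = 0.074) and -1.34 (SE 0.53, adjusted p = 0.06), neither of which passed. SIRT6, a chromatin-bound sirtuin of DNA repair, had 17.5 ± 2.57 CPM in complete smoke, 22.1 ± 6.47 CPM in filtered smoke and 15.97 ± 1.56 CPM in clean air in A549 cells (SD, n = 3 each). In BEAS-2B cells SIRT6 had 39.1 ± 17.9 CPM in complete smoke, 44.3 ± 12.6 CPM in filtered smoke and 24.7 ± 10.1 CPM in clean air (SD, n = 3 each), and it passed in no comparison. Of the mitochondrial SIRT3, SIRT4 and SIRT5, 1 passed, SIRT4, lower in BEAS-2B complete smoke.

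In A549 complete smoke, HDAC3 lost its call without complete smoke library 1 or 2 or any clean air library (adjusted p up to 0.083), and SIRT2 without complete smoke library 2 or clean air library 2 or 3 (up to 0.065). HDAC1 and HDAC2 in A549 cells lost theirs without most single libraries, with adjusted p up to 0.13, 0.16 and 0.10, and SIRT1 without any one clean air library or filtered smoke library 1 or 2 (up to 0.12). In BEAS-2B complete smoke, HDAC3, HDAC11 and SIRT2 lost theirs without complete smoke library 1 or 2 or clean air library 2 or 3 (up to 0.14, 0.11 and 0.069), HDAC3 also without filtered smoke library 2, and HDAC10 without complete smoke library 1 or clean air library 1 or 3 (up to 0.088). In BEAS-2B filtered smoke, HDAC3 lost its call without filtered smoke library 1 or 2 or clean air library 2 or 3 (up to 0.086) and HDAC11 without clean air library 2 or 3 (up to 0.059).

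Complete smoke was set against filtered smoke to ask what the filtered-out part of the aerosol added. No member passed in either line with edgeR, DESeq2 or limma-voom, and the background was 0% of genes called by edgeR in each line. At an unadjusted p below 0.05 there were 1 member in A549, KDM4D, and 0 in BEAS-2B cells, beside 236 and 222 of all genes, and DESeq2 called 3 genes in A549 cells and 0 in BEAS-2B cells, none a member. The medians of the members were 0.07 in A549 and -0.04 in BEAS-2B cells on the log2 scale. The members' differences ran from -0.35 to 0.94 in A549 and from -1.30 to 1.4998 in BEAS-2B cells, the highest being KMT2D at 1.4998 (SE 0.99, adjusted p = 1), whose complete smoke library 3 had 86.8 CPM. SEs of this size leave differences undetected, so the absence of calls does not show that both exposures acted alike.

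The response was next compared between the lines, as BEAS-2B minus A549. The lines also differed in medium, in the number of cells plated and in a series mark of the sample titles. A difference between lines cannot be told apart from these. With complete smoke 1 of 66 members passed, EZH2, at -0.94 (SE 0.21, adjusted p = 0.031), while 1.17% of all genes were lower and 0.565% higher. The call was lost without any one A549 clean air or complete smoke library, A549 filtered smoke library 2 or BEAS-2B complete smoke library 1, with adjusted p up to 0.088, while the difference stayed between -1.04 and -0.89. With filtered smoke no member passed by edgeR in this fit, beside 0.514% of all genes lower and 0.311% higher. There 5 members had an unadjusted p below 0.05, EZH2 was at -0.84 (SE 0.21, adjusted p = 0.071), and DESeq2 called EZH2 (-0.86, adjusted p = 0.00023). By edgeR the filtered smoke difference of EZH2 passed with a replicate block (-0.85, adjusted p = 0.0051), with the offset for span, exonic length and GC content (-0.74, adjusted p = 0.038), with a stricter low-count filter (-0.86, adjusted p = 0.039) and with library size alone (-1.35, adjusted p = 0.013). It did not pass with limma-voom (adjusted p = 0.063). By edgeR it also did not pass with DESeq2 size factors (adjusted p = 0.063), counts that ignore strand (0.079) or no low-count filter (0.33). Nor did it pass by edgeR in any fit without a single library (adjusted p from 0.056 to 0.16). Deviations from the group mean correlated between same-number samples at 0.22 to 0.80 in A549 and at -0.13 to 0.67 in BEAS-2B cells. The replicate block called 8 members with complete smoke, 1 higher and 7 lower, beside 10.3% and 9.68% of all genes. With filtered smoke it called 4 members, 1 higher and 3 lower, beside 7.94% and 7.55% of all genes. With complete smoke, 9 members had an unadjusted p below 0.05, and without BEAS-2B clean air library 1 and complete smoke library 3 the number that passed was 16, with 13 lower. Neither count was set beside the share of all genes. Calls made in 1 line and missed in the other, such as those of KDM2A or HDAC4, were not shown to differ between lines in the fit of all libraries.

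**Figure D4:**
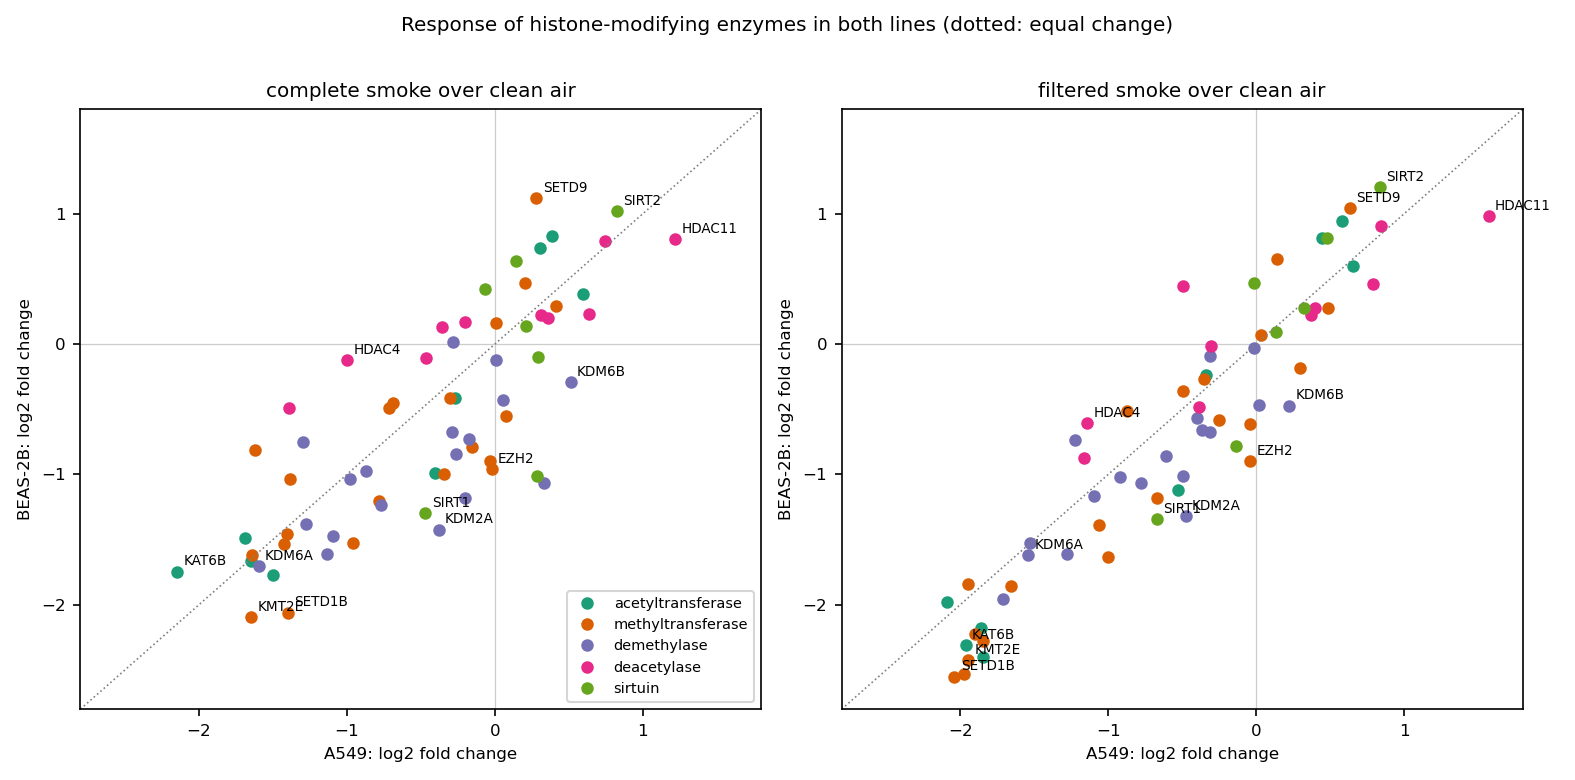
Log2 fold change over clean air in BEAS-2B cells (vertical axis) against A549 cells (horizontal axis) for each member, with complete smoke at left and filtered smoke at right. With complete smoke the line difference was below 0 for 44 of 66 members and ran from -1.40 to 0.86, and with filtered smoke it was below 0 for 42. The dotted line marks equal change, and EZH2 lies near 0 in A549 cells and at -0.96 and -0.90 in BEAS-2B cells.

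In clean air 11 of 66 members were higher and 14 lower in BEAS-2B than in A549 cells, beside 27.3% and 28% of all genes. Line, medium, cells plated and the series mark of the titles cannot be told apart here either. With the replicate block 16 were higher and 28 lower, beside 29.9% and 32.3% of all genes. HDAC1 had 178 ± 11.7 CPM in BEAS-2B and 83.6 ± 6.30 CPM in A549 cells (SD, n = 3 each), a log2 difference of 1.09 (SE 0.16, adjusted p = 1.8e-05). HDAC2, HDAC3, EZH2 and SETD9 were also higher in BEAS-2B cells, by 1.06, 1.36, 0.93 and 1.28. KDM6B was lower, at 5.61 ± 2.07 CPM in BEAS-2B and 26.03 ± 2.46 CPM in A549 cells (SD, n = 3 each), a log2 difference of -2.21 (SE 0.52, adjusted p = 0.0016). KDM7A (-1.82), SETD7 and KDM5B (-1.29) followed. Per kilobase of exon, HDAC1 was the highest member in clean air in both lines, at 44.8 CPM per kb in BEAS-2B and 21.1 CPM per kb in A549 cells. EZH2 was second in BEAS-2B at 22.6 CPM per kb and 9th in A549 cells at 11.8 CPM per kb. EP300 stood at 6.57 CPM per kb in BEAS-2B and 7.46 CPM per kb in A549 cells, and KAT6B at 0.102 and 0.191 CPM per kb.

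Lists of the enzymes' partners, chosen with earlier results known, also held members that fell and members that rose. Over all genes 16.9% and 23.5% fell with complete and filtered smoke in A549 and 19.5% and 24.9% in BEAS-2B cells. In the same order, 15.6% and 23.1% of all genes rose in A549 and 21.5% and 23.6% in BEAS-2B cells. Of 33 subunits of acetyltransferase complexes, 14 fell and 1 rose with complete smoke and 16 fell and 5 rose with filtered smoke in A549 cells. In BEAS-2B cells 15 fell and 1 rose, and 13 fell and 2 rose. KANSL1, the scaffold of the NSL complex, was at log2 values of -1.96 and -1.69 in A549 and -1.79 and -1.79 in BEAS-2B cells, all called. Of 21 tested deacetylase corepressor subunits, 8 and 10 fell in A549 and 9 and 10 in BEAS-2B cells with complete and filtered smoke. With the offset for span, exonic length and GC content, 4 and 5 of them fell in A549 and 8 and 9 in BEAS-2B cells. RCOR1, the CoREST scaffold, and SIN3A fell in all 4 comparisons, at -1.01, -1.30, -1.34 and -1.52 for RCOR1. The short subunit SAP18 rose in all 4, at log2 values from 0.61 to 0.93. Among 9 Polycomb partners, 4 fell and 2 rose with each exposure in A549 cells, and 2 and 4 fell and 1 rose in BEAS-2B cells. JARID2 fell in all 4 and PHF1 rose in all 4, and EED passed in none, with log2 values from 0.04 to 0.09. Of 11 COMPASS partners, 4 and 5 fell in A549 and 4 and 4 in BEAS-2B cells, and DPY30 rose in each. WDR5, the shared core subunit, passed in none. Of 8 other JmjC proteins, 4 fell and 1 rose with each exposure in A549 cells, and 5 fell with each in BEAS-2B cells. Other histone methyltransferases counted 5 falls and 5 rises, then 5 and 6, among 18 tested in A549 cells, and 3 and 5, then 5 and 7, among 19 in BEAS-2B cells. NSD1 and NSD3 fell in all 4, and PRMT1, PRMT5, SMYD3 and SMYD5 rose in all 4. With the offset, 3 of 33 acetyltransferase subunits rose with each exposure in A549 and 5 with each in BEAS-2B cells, and 11 fell in A549 complete smoke. In that fit 3 Polycomb partners fell and 3 rose with each exposure in A549 cells, and 1 and 2 fell and 2 and 4 rose in BEAS-2B cells. Of the COMPASS partners 6 and 7 then fell in A549, where 2 rose with each exposure, and 5 and 6 fell in BEAS-2B cells. Over all genes 16.2% and 21.9% fell in A549 and 25.2% and 27.7% in BEAS-2B cells with the offset. Without the offset the medians of these lists ran from -1.003 to 0.23, beside -0.07 to 0.02 over all genes.

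Fold changes of the members were lower in longer genes, as over all protein-coding genes. The members had a median span of 46.7 kb, against 33.7 kb for all tested protein-coding genes. Of 18 members spanning over 100 kb, 14 fell with each exposure in A549 cells, 10 with complete and 12 with filtered smoke in BEAS-2B cells, and none rose. Of all protein-coding genes that long, 40.9% and 47.5% fell in A549 and 28.2% and 42.7% in BEAS-2B cells. The median log2 fold change of these long members was -1.20 in both A549 comparisons and -1.09 and -1.35 in BEAS-2B cells. For all protein-coding genes over 100 kb it was -0.54 and -0.59 in A549 and -0.57 and -0.73 in BEAS-2B cells. Members under 10 kb had medians of 0.25 and 0.31 in A549 and 0.39 and 0.60 in BEAS-2B cells, where all genes that short had 0.55, 0.67, 0.71 and 0.78. Spearman's rho between span and fold change over the members was -0.71 and -0.66 in A549 (65 genes) and -0.44 and -0.57 in BEAS-2B cells (66 genes), a description over genes of the same libraries. With an offset for span, exonic length and GC content, rho was -0.30, -0.23, -0.13 and -0.15. In that fit 20 and 27 members fell in A549, where 16.2% and 21.9% of all genes fell, and 26 and 23 fell in BEAS-2B cells, where 25.2% and 27.7% did. Among the named genes it ended the calls of KAT2A with both exposures, of KDM5B, KMT2A and KMT2D with complete smoke and of SETD9 with filtered smoke in A549 cells, and of EZH1, KAT2B, KDM3A and KDM5B with filtered smoke in BEAS-2B cells.

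**Figure D5:**
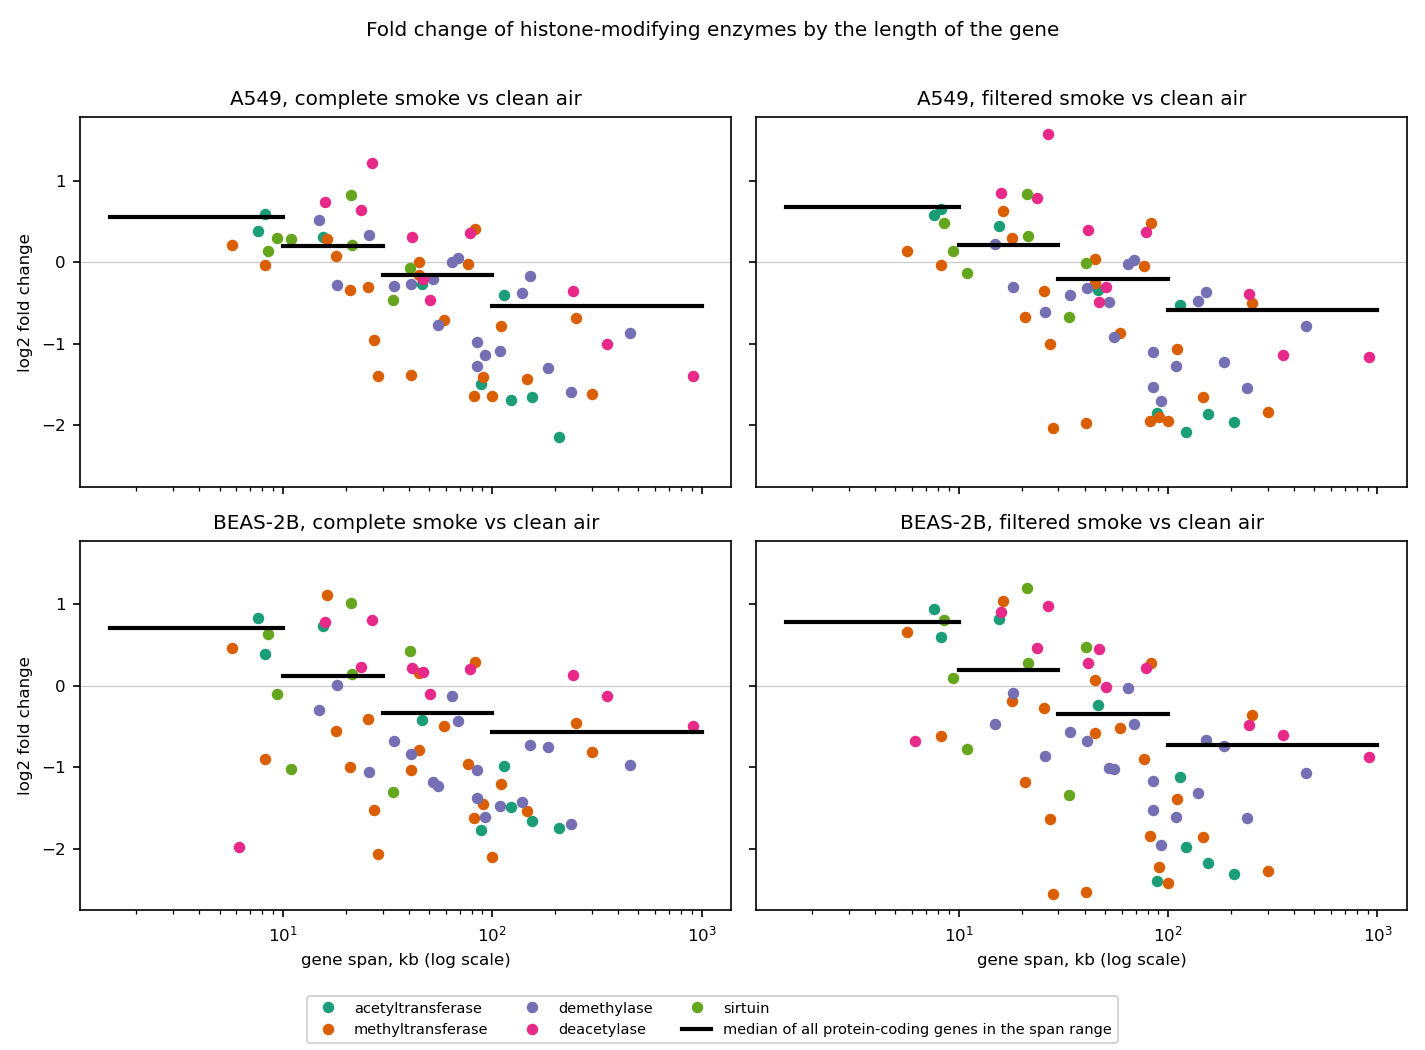
Log2 fold change of each member over clean air against the span of its gene in kb (log scale), in 4 panels by line and exposure. Black bars are medians of all tested protein-coding genes in the same range of span; in the over 100 kb range most members lie below the bar.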

How the data were processed

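The deposited files hold STAR gene counts for 18 libraries (STAR 2.7.10b, GRCh38, per the submitters' processing notes). The authors' column 4 of reads counted by strand was used as deposited, since it held 11.7 to 17.1 times the reads of column 3; the labels' protocols name the TruSeq mRNA kit v2. The 4 summary lines were left out of library sizes. From these counts, edgeR 4.0.16 (R 4.3.3) fitted quasi-likelihood models with robust dispersion, TMM scaling and edgeR's filter for low counts, over the 9 libraries of a line, and over all 18 for comparisons between lines. P-values were adjusted by Benjamini-Hochberg over all genes tested, with calls under 0.05, and the method was tested on simulated data. CPM use TMM scaling over all 18 libraries, SE is the log2 fold change over the root of F, and spans and exons are from GENCODE 29 gene models. GENCODE 29 holds 58225 of the 62649 gene IDs in the count files. The counting used another annotation, in which spans, exons and shared bases may differ.

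Groups came from titles and the cell type label. The members and gene lists were chosen with earlier results of these data known. Genes named in full were 20 fixed enzymes and, of those changed at least 2-fold, the 8 largest rises and falls per line, to a limit of 30. Other members are named where a count includes them, chosen after their values were seen.

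In A549 cells the sample numbers in the titles deviated together in all 9 same-number pairs (correlations of deviations 0.22 to 0.80). The main fits did not use these pairs, and only the replicate block among the alternatives did. Alternatives were DESeq2 1.42.0 size factors and Wald test, limma-voom (limma 3.58.1), library size alone, other filters, counts that ignore strand, a replicate block, an offset for span, length and GC, and leaving out libraries. Depth limits low genes such as KAT6B.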

Additional observations from a re-analysis of the deposited data

Results flagged for a closer look

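The response of EZH2 to complete smoke differed between the lines, with a difference of -0.94 (BEAS-2B minus A549, log2; edgeR quasi-likelihood test, adjusted p = 0.031) in a fit of all 18 libraries that tests the difference itself. All 3 BEAS-2B complete smoke libraries lay below all 3 clean air libraries, and the A549 libraries overlapped. The value lay between -1.04 and -0.89 when single libraries were left out, and the call was lost in 8 of 18 cases. Line cannot be told apart from medium, cells plated and the series mark of the titles.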

How the results depend on the processing

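For 87 results on single genes, 1494 of 1710 repeats under other settings kept direction and side of the threshold, 189 lost the call, 13 gained it and 14 changed sign. Of 78 called results on named genes, 41 held without any one library. For the results below whose value moved, the cause was not tested except where libraries were left out. The member counts below are given without the share of all genes called under the same setting.

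Leaving out single libraries, the members called numbered 12 to 36 in A549 complete smoke, 11 to 41 in BEAS-2B complete smoke, 17 to 42 in BEAS-2B filtered smoke and 0 to 1 for the line difference in complete smoke. Without BEAS-2B clean air 1 and complete smoke 3, a setting chosen after seeing the data, 51 were called in BEAS-2B complete smoke, and 16 and 1 for the line differences in complete and filtered smoke. In that order of differences, library size alone gave 13 and 2, DESeq2's Wald test 3 and 1, the offset for span, length and GC 5 and 1, no low-count filter 0 in complete smoke and the stricter filter 1 in filtered smoke.

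In BEAS-2B cells 8 of 9 same-number correlations passed 0.1, with a highest of 0.67. The lowest was -0.13, between complete smoke 2 and clean air 2, and samples of different numbers reached 0.48. These values do not settle whether the numbers mark pairs in that line. With the replicate block 50 members were called in BEAS-2B complete smoke, 8 and 4 for the line differences (15 and 7 with the offset added), and 44 for the lines in clean air, with and without the offset. In A549 cells the block changed the call of KDM3A in filtered smoke among the named genes.

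The values that changed sign were not called as first fitted, and of the changed ones only KDM3A in A549 complete smoke passed. EZH2 in A549 cells was 0.167 and 0.178 with the offset, 0.169 and 0.1799 with block and offset, and ran from -0.067 to 0.017 in complete and from -0.089 to 0.0094 in filtered smoke without single libraries. KDM3A in A549 complete and filtered smoke was 0.31 and 0.197 with the offset, and 0.314 and 0.197 with the block added (edgeR adjusted p = 0.034 and 0.0090 in complete smoke). KDM6B ran from -0.206 to 0.797 in A549 complete, -0.048 to 0.440 in A549 filtered and -1.23 to 0.029 in BEAS-2B complete smoke, and was -0.104 in A549 filtered smoke with block and offset.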
